A study of Mus musculus with 12 samples.

Results

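The transcription factors that specify oligodendrocytes and switch on myelin genes were examined in adult C57BL/6N mice, in tissue dissected from the medial prefrontal cortex. The set was fixed by name, with earlier results of these data known. It held 10 genes: Olig1, Olig2, Sox10, Sox8, Nkx2-2, Nkx6-2, Myrf, Tcf7l2, Zfp488 and Zfp536. Each gene was read from its single-gene probe set with the highest mean over the 12 animals, and 9 of the 10 had one, among 18820 genes that did. The only probe set annotated to Nkx6-2 also carries a second gene, and Nkx6-2 is therefore listed without values. Each of the 9 had exactly 1 such probe set, and all 9 had a mean at or above the 25th percentile of the value table.

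The mice were 12 weeks old and came from mothers injected intravenously on gestation day 17. In the PolyI:C group (n = 6) the mothers had received 5 mg/kg of poly(I:C), a synthetic RNA duplex that mimics a viral infection. In the control group (n = 6) they had received saline. All offspring had been through behavioural testing before the tissue was taken, and 1 array was run for each animal. The labels call the animals biological replicates and name neither litter, sex nor array strip, so p-values reflect only the variation among these mice, and siblings may be among them.

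Oligodendrocytes arise from dividing precursors, and a sequence of transcription factors carries them to the myelinating stage. The basic helix-loop-helix factors Olig1 and Olig2 and the homeodomain factor Nkx2-2 act early in the lineage, together with the related HMG-box factors Sox10 and Sox8. Sox10 stays on in mature cells and switches on Myrf, a membrane-bound factor that is cleaved, enters the nucleus and drives myelin genes. Tcf7l2 (a DNA-binding partner of beta-catenin in Wnt signalling), Nkx6-2 and the zinc finger protein Zfp488 act around differentiation and myelination. Olig1, Olig2, Sox10, Sox8 and Nkx2-2 were therefore taken as 5 early factors and Myrf, Nkx6-2, Tcf7l2 and Zfp488 as 4 myelination factors. Zfp536, a zinc finger protein that is also present in neurons, was put in neither class.

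All 9 measured factors had a lower mean in PolyI:C offspring than in controls, and 1 of them, Myrf, fell past the test. Of all annotated probe sets, 48.0% had a lower mean, and 0.805% were lower past an adjusted p of 0.05 (limma, Benjamini-Hochberg over 23099 probe sets), while 2.02% were higher and 2.83% passed in either direction. The median log2 difference of the 9 factors was -0.11, against 0.0025 over all 18820 genes. At an unadjusted p under 0.05, 4 of the 9 were lower (Myrf, Sox8, Sox10 and Tcf7l2), against 7.33% of all probe sets. Because the factors were chosen with earlier results of these data known, these shares are a description and no test of the set. None of the 9 factors separated the groups completely, and 2.37% of all probe sets did. With 9 factors, a count of none is no contrast to so small a share. In bulk tissue, fewer oligodendrocytes and less RNA per oligodendrocyte cannot be told apart. Whether the make-up of the dissected tissue differed between the groups was not tested. Striatal markers, read below, had a median difference of -0.27 and cortical projection neuron markers one of 0.12.

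**Figure D1:**
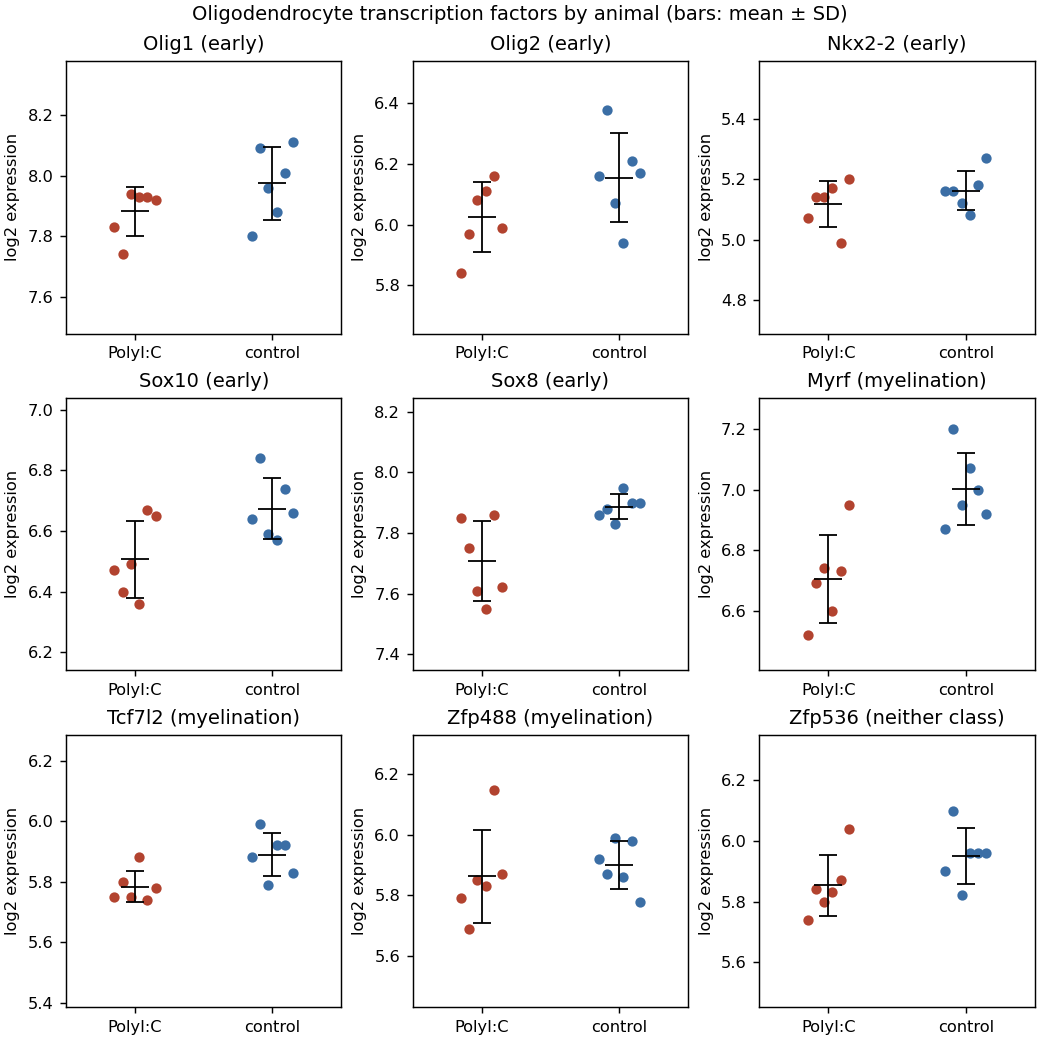
Log2 expression (vertical axes, each spanning the same range of log2 units) of the 9 measured factors in every PolyI:C and control animal. Points are animals and bars are the mean ± SD (n = 6 each). The 5 lowest Myrf values are all PolyI:C animals, and the groups overlap in every panel.

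Myrf, the driver of myelin gene expression, showed the largest difference of the 9. Its log2 expression in the PolyI:C animals was 6.52, 6.60, 6.69, 6.73, 6.74 and 6.95, against 6.87, 6.92, 6.95, 7.00, 7.07 and 7.20 in the control animals. Of the PolyI:C animals, 5 lay below every control, and PolyI:C 6 lay within the control range. The mean was 6.71 ± 0.15 in PolyI:C offspring and 7.00 ± 0.12 in controls (SD, n = 6 each), a log2 difference of -0.30 ± 0.06 (SE; 95% interval -0.43 to -0.16; limma adjusted p = 0.0239), or 18.6% lower on the linear scale. The call could be lost with 1 animal left out. It was lost without control 2 (log2 difference -0.26, adjusted p = 0.0584), without PolyI:C 1 (-0.26, adjusted p = 0.0564) and without PolyI:C 4 (-0.28, adjusted p = 0.0572). In the same fits the calls over all probe sets fell from 653 to 230, 236 and 302. The Myrf call was also lost without variance moderation (-0.30, adjusted p = 0.0966), where 122 probe sets passed in all.

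Sox8, the early factor with the largest difference, did not pass. It ranged from 7.55 to 7.86 with a median of 7.69 in PolyI:C offspring, against 7.83 to 7.95 with a median of 7.89 in controls. The control values lay close together (SD 0.04) while the PolyI:C values spread more widely (SD 0.13), and 4 PolyI:C animals were below all controls. The log2 difference was -0.18 ± 0.05 (SE; 95% interval -0.29 to -0.07; limma adjusted p = 0.0614). Sox8 is not restricted to oligodendrocytes, since astrocytes carry it too. It passed without PolyI:C 5 (-0.21, adjusted p = 0.0297), with median centring (adjusted p = 0.0389), with array weights (0.0430), with a trended, robust variance prior (0.0437) and after quantile normalization (0.0448).

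Sox10, which marks the lineage from precursor to mature cell and is also the master factor of Schwann cells, ranged from 6.36 to 6.67 (median 6.48) in PolyI:C offspring and from 6.57 to 6.84 (median 6.65) in controls. All 6 PolyI:C animals were below the control mean and 4 were below every control. Its log2 difference was -0.17 ± 0.06 (SE; 95% interval -0.29 to -0.05) and did not pass (limma adjusted p = 0.117). Leaving out any 1 animal kept the difference between -0.20 and -0.13 with an adjusted p from 0.0641 to 0.235.

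Olig2, required for the specification of the lineage, ranged from 5.84 to 6.16 (median 6.03) in PolyI:C offspring and from 5.94 to 6.38 (median 6.17) in controls. The groups overlapped over most of their range, and control 4 had the second lowest value of all animals. The log2 difference was -0.13 ± 0.06 (SE; limma adjusted p = 0.276). Olig1, its close relative and chromosomal neighbour, which takes part in maturation and repair, ranged from 7.74 to 7.94 (median 7.93) in PolyI:C offspring and from 7.80 to 8.11 (median 7.99) in controls. Controls 2, 3, 5 and 6 lay above every PolyI:C animal, and the difference of -0.09 ± 0.05 did not pass (limma adjusted p = 0.357). Nkx2-2, a homeodomain factor that promotes the differentiation of precursors, ranged from 4.99 to 5.20 (median 5.14) in PolyI:C offspring and from 5.08 to 5.27 (median 5.16) in controls. Its difference of -0.04 ± 0.04 had a 95% interval from -0.13 to 0.04 (limma adjusted p = 0.581). The Nkx2-2 means, 5.12 in PolyI:C offspring and 5.16 in controls, lay below the median of all probe set means, 5.18.

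Among the myelination factors other than Myrf, Tcf7l2 ranged from 5.74 to 5.88 (median 5.77) in PolyI:C offspring and from 5.79 to 5.99 (median 5.90) in controls. Of the PolyI:C animals 4 were below all controls, but the difference of -0.11 ± 0.04 (SE; 95% interval -0.19 to -0.03) did not pass (limma adjusted p = 0.126). Zfp488, which promotes oligodendrocyte maturation, ranged from 5.69 to 6.15 (median 5.84) in PolyI:C offspring and from 5.78 to 5.99 (median 5.90) in controls. PolyI:C 5 had the highest value of all 12 animals, and the difference was -0.04 ± 0.06 (95% interval -0.17 to 0.09; limma adjusted p = 0.783). Without PolyI:C 5 the Zfp488 difference was -0.09 (adjusted p = 0.259). Zfp536, in neither class, ranged from 5.74 to 6.04 (median 5.84) in PolyI:C offspring and from 5.82 to 6.10 (median 5.96) in controls, with a difference of -0.10 ± 0.05 (limma adjusted p = 0.303).

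**Figure D2:**
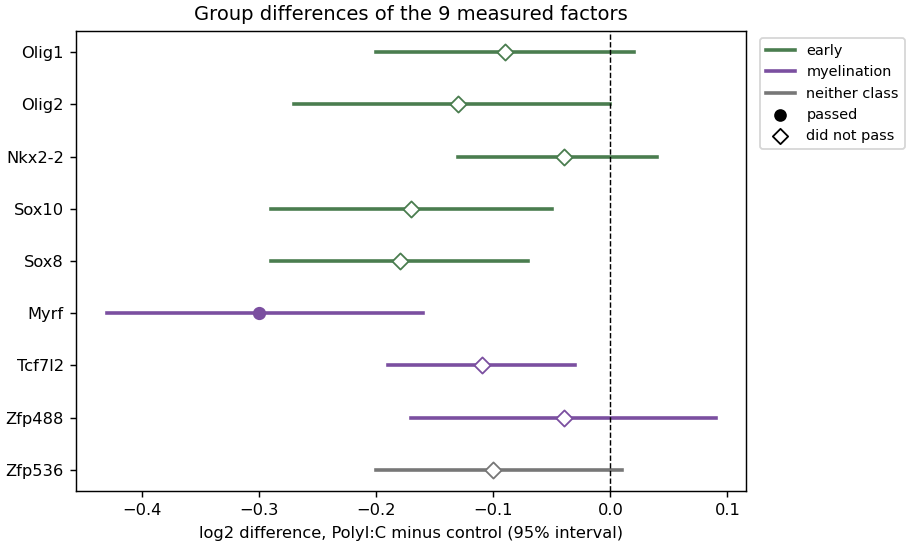
Log2 difference, PolyI:C minus control (horizontal axis), with its 95% interval for each of the 9 measured factors, coloured by class. Filled circles passed an adjusted p of 0.05 in limma and open diamonds did not. Every estimate lies below 0, from -0.30 for Myrf to -0.04 for Nkx2-2 and Zfp488.

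The early and the myelination factors were then set side by side as class means within each animal, as a description without a test, because the genes had been chosen with earlier results known. The 5 early factors averaged 6.65 ± 0.05 in PolyI:C offspring and 6.77 ± 0.07 in controls, a log2 difference of -0.12. The 3 measured myelination factors averaged 6.12 ± 0.07 in PolyI:C offspring and 6.26 ± 0.06 in controls (SD, n = 6 each), a log2 difference of -0.15. In both classes all 6 PolyI:C animals lay below the control mean.

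The gap between the classes, taken within each animal as myelination minus early, was -0.53 ± 0.04 in PolyI:C offspring and -0.51 ± 0.08 in controls (log2, SD). The group difference of this gap was -0.02, less than the spread between animals of either group. The sizes within the classes were uneven: the myelination class held both the largest difference (Myrf, -0.30) and one of the smallest (Zfp488, -0.04), and the early class ran from -0.18 for Sox8 to -0.04 for Nkx2-2. With the median over genes in place of the mean, the early class differed by -0.17 and the myelination class by -0.05, so the gap differed by 0.12 in the other direction. These medians follow the order of brightness and are 1 gene per animal. The median of the 5 early factors is Sox10 in every animal. That of the 3 myelination factors is never Myrf, the brightest of them in every animal, but the brighter of Tcf7l2 and Zfp488. The reversed gap therefore describes these genes and not the classes.

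**Figure D3:**
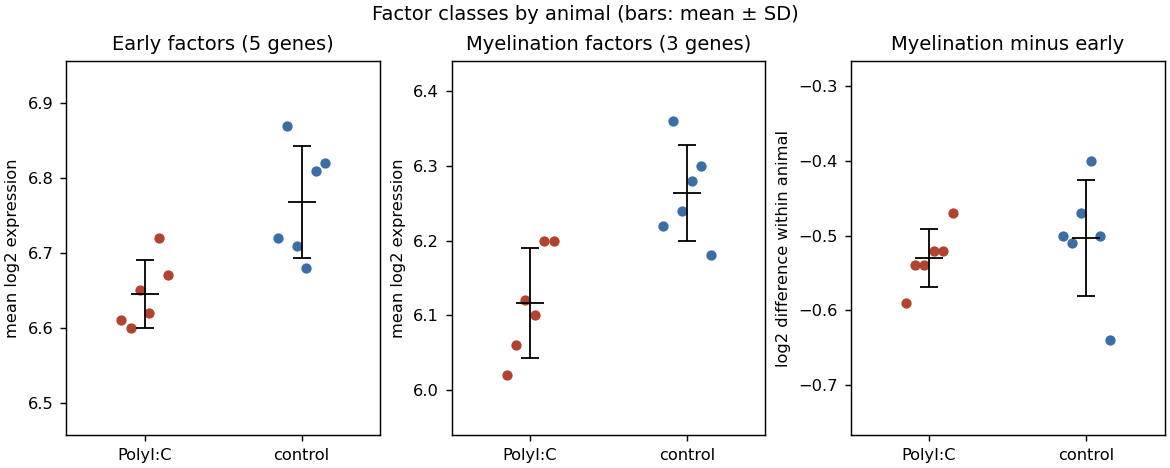
Mean log2 expression of the 5 early factors (left), of the 3 measured myelination factors (middle), and their difference within each animal (right). Points are animals and bars are the mean ± SD (n = 6 each). Both class means are lower in PolyI:C animals, by 0.12 and 0.15, while the PolyI:C values of the difference between the classes all lie within the control range.

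The animals at the ends of each range were compared across the factors. Control 2 was the highest control for 5 of the 9 factors (Sox10, Olig2, Myrf, Tcf7l2 and Zfp536). Among PolyI:C offspring, animal 5 was the highest for 4 factors (Sox10, Sox8, Olig2 and Zfp488) and animal 6 for 3 (Myrf, Nkx2-2 and Zfp536), while animal 1 was the lowest for 3 (Olig2, Myrf and Zfp536). For the other factors the highest control was animal 6 (Olig1 and Nkx2-2), animal 4 (Sox8) or animal 3 (Zfp488).

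Genes with the most similar course over the animals were sought for Sox10, Olig2 and Myrf, after each group had been centred on its own mean so that the group difference played no part. The factors of the set were themselves left out of the ranking. These are the highest coefficients among the other genes of the 21218 single-gene probe sets, each over 12 animals, and are given as a description. Nearest to Sox10 were Csrp1 (r = 0.95), Lmf1 (0.94), Ndrg1 (0.92), Calhm5 (0.91) and Tanc1 (0.91). Ndrg1, an oligodendrocyte and Schwann cell protein linked to myelin maintenance, differed by -0.22 ± 0.06 between the groups and did not pass (limma adjusted p = 0.0729). Of the fits without 1 animal, Ndrg1 passed in that without PolyI:C 6 (-0.26, adjusted p = 0.0494). Nearest to Olig2 were Eci1 (0.94), Dxo (0.94), Lmcd1 (0.90), Parvb (0.90) and Mrpl18 (0.89). Nearest to Myrf were 4931440P22Rik (0.90), Nynrin (0.87), C9orf72 (0.87), Ptpre (0.86) and Prr18 (0.86). None of these 15 genes passed the test between groups.

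Promoter sequence was held in the RefSeq table (GRCm38.p6) for 7 of the 10 factors, in 8 windows of the 250 bases before a start site. The 3 measured factors with the lowest p among these, Sox8, Tcf7l2 and Olig2, are shown 5′ to 3′ on the strand of the gene. None of the 3 passed the test between groups. No window was held for Sox10, Olig1 or Myrf, the called factor. Capitals mark the Sox core ACAANG or its reverse complement, the letters that HMG-box factors such as Sox10 bind.
Sox8, chr17:25570687-25570936, minus strand: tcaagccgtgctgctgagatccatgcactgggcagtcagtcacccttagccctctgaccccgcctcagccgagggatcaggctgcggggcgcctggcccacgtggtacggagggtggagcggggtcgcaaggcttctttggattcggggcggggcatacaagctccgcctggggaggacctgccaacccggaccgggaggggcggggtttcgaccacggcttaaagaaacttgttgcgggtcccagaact
Tcf7l2, chr19:55741560-55741809, plus strand: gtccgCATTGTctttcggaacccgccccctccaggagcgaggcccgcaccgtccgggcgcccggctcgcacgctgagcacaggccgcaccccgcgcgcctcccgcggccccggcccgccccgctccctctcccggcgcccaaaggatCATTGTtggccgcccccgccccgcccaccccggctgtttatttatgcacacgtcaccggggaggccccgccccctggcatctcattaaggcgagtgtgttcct
Olig2, chr16:91225300-91225549, plus strand: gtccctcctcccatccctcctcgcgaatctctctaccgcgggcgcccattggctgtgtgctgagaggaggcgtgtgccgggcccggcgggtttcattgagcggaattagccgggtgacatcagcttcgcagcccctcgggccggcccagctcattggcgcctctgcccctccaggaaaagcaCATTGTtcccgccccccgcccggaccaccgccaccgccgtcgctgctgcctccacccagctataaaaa
The Olig2 window held 1 Sox core, beginning 68 bases before the start site, the Tcf7l2 window held 2, beginning 245 and 103 bases before it, and the Sox8 window held none. Of all 8 windows 3 held a Sox core (the third is a downstream start of Tcf7l2), against 36.3% of 32851 windows of the same length. The E-box CANNTG, the letters bound by helix-loop-helix factors such as Olig2, was in 3 of the 8 windows, against 66.2% of all. The Tcf/Lef core ATCAAAG was in none of the 8, against 3.21% of all. Both strands were searched, and matches of different motifs may overlap. A match describes letters only.

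Other regulators of the lineage were taken from lists, whose counts stand against the 2.83% of all probe sets that passed in either direction. Of 11 measured (of 14) regulators that promote differentiation none passed in limma, 2 had a lower and 9 a higher mean, and the median log2 difference was 0.02. The chromatin remodeller Chd8 differed by 0.11 ± 0.03 (adjusted p = 0.0701), the zinc finger factor Zeb2 by 0.08 ± 0.03 (0.130), the histone deacetylase Hdac2 by 0.09 ± 0.04 (0.302) and St18, a zinc finger factor, by -0.10 ± 0.04 (0.133). Of 11 regulators that restrain differentiation none passed and 6 had a lower mean, with a median of -0.04. They included the helix-loop-helix inhibitor Id4 (-0.12 ± 0.04, limma adjusted p = 0.0911), Sox6, an HMG-box factor of precursors and neurons (-0.08 ± 0.03, 0.149), the lysosomal regulator Tfeb (-0.06 ± 0.04, 0.380) and the receptor Notch1 (-0.07 ± 0.04, 0.430).

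The signalling pathways around the factors were read against the same 2.83%. Of 17 measured Wnt genes, partners or targets of Tcf7l2, none passed, 9 had a lower and 8 a higher mean (median -0.01), the lowest p belonging to the corepressor Tle2 at 0.10 ± 0.04 (limma adjusted p = 0.151), the feedback inhibitor Nkd1 at -0.08 ± 0.03 (0.193), the Wnt deacylase Notum at -0.06 ± 0.04 (0.420) and the repressor Tcf7l1 at -0.05 ± 0.04 (0.441). Of 7 sonic hedgehog genes, the pathway that induces Olig2 in the embryo, none passed and 5 had a lower mean (median -0.06), with the effector Gli3 at -0.13 ± 0.04 (limma adjusted p = 0.0677), the ligand Shh at -0.06 ± 0.03 (0.364), Gli1 at -0.06 ± 0.03 (0.368) and the transducer Smo at -0.06 ± 0.05 (0.499). Among 7 measured family relatives of the factors none passed (median -0.05): Sox9, the astrocyte member of the Sox8 and Sox10 group, was at -0.05 ± 0.03 (limma adjusted p = 0.409), the ventral forebrain factor Nkx2-1 at -0.07 ± 0.04 (0.315) and Myrfl, the paralog of Myrf, at -0.05 ± 0.03 (0.393).

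Myelin genes on which Sox10 and Myrf are known to act, or which mark the cells that hold them, were read in the same fit. Of 20 measured (of 21), 8 fell, none rose and 12 did not pass in limma, 19 had a lower mean, and the median log2 difference was -0.31, against -0.11 for the 9 factors. Over all probe sets 0.805% were lower past the test, 2.02% were higher and 48.0% had a lower mean. The list mean lay between 7.03 and 7.48 in PolyI:C offspring and between 7.35 and 7.68 in controls. Erbb3, a neuregulin receptor and direct target of Sox10, differed by -0.21 ± 0.05 (limma adjusted p = 0.0396), Gjb1, a connexin and direct target of Sox10, by -0.22 ± 0.05 (0.0298), and the tight-junction gene Cldn11 by -0.44 ± 0.08 (0.0112). The others were Mobp (-0.50 ± 0.09), Cnp (-0.34 ± 0.07), Mal (-0.39 ± 0.09), Trf (-0.30 ± 0.08) and Tspan2 (-0.31 ± 0.08). The count was 2 without control 2, control 3 or PolyI:C 1, 3 without PolyI:C 4, 4 without control 6, 5 without control 4, control 5 or PolyI:C 2, and 12 without PolyI:C 5. The count was 4 without controls 5 and 6 together and 0 without variance moderation in limma (14 at an unadjusted p under 0.05), where Cldn11 and Mobp also lost their calls. Both kept them in each fit without 1 animal. Cnp lost its call without 3 single animals, Mal without 4, Gjb1 without 5, Erbb3 and Trf without 9 each and Tspan2 without 10, with adjusted p up to 0.0980 for Trf. Control 2, control 3 and PolyI:C 1 were among these animals for each of the 6 genes.

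Markers of precursors and of newly formed oligodendrocytes gave 2 calls. Over all probe sets 2.02% were higher past the test and 0.805% were lower. Of 11 precursor markers 1 rose and 10 did not pass (median -0.03): the adhesion gene Pcdh15 was at 0.22 ± 0.05 (limma adjusted p = 0.0219) and the secreted protein gene C1ql1 at -0.12 ± 0.04 (0.0997). The Pcdh15 call was lost without control 2 (adjusted p = 0.0582), PolyI:C 1 (0.0502) or controls 5 and 6 together (0.0542). Of 8 markers of newly formed oligodendrocytes 1 fell and 7 did not pass (median -0.02): Bcas1 was at -0.31 ± 0.06 (limma adjusted p = 0.0129) and the choline phosphodiesterase Enpp6 at -0.16 ± 0.05 (0.0951). The Bcas1 call held without any 1 animal, and Enpp6 passed without control 4 (adjusted p = 0.0429). Whether the differences of the stages differ from each other was not tested.

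**Figure D4:**
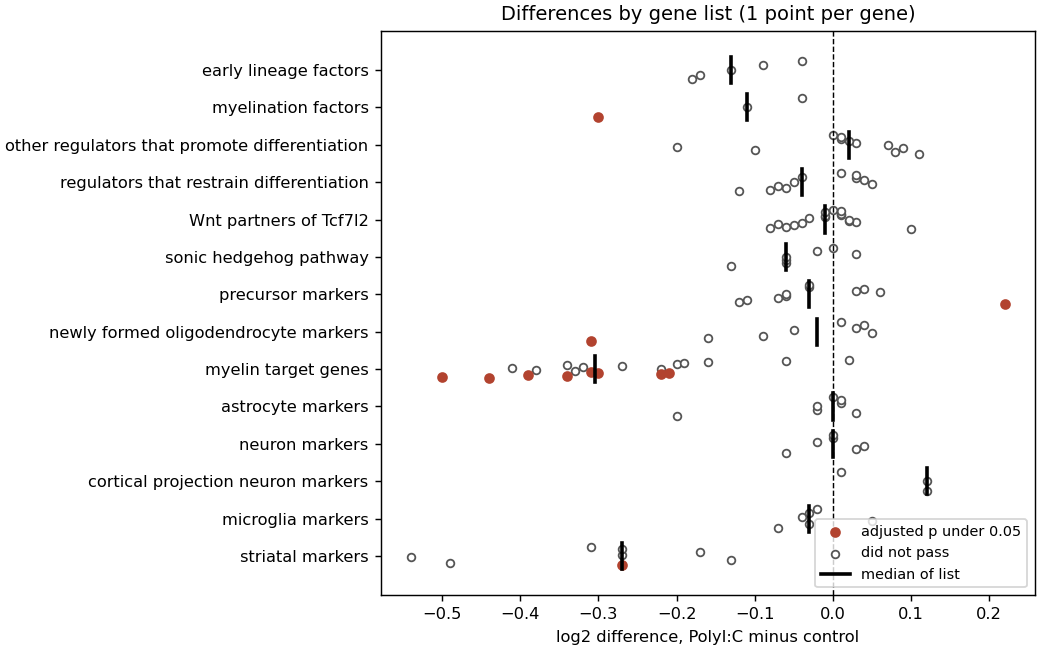
Log2 difference, PolyI:C minus control (horizontal axis), for measured genes of the factor classes, of other lineage regulators and pathways, and of cell type markers. Family relatives, endothelial markers and Schwann cell markers are not drawn. Each point is a gene, filled where it passed an adjusted p of 0.05 in limma, and the black bar is the median of the list. The myelin target genes have their median at -0.31, the striatal markers at -0.27, the cortical projection neuron markers at 0.12 and the astrocyte and neuron markers near 0.

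Markers of other cells were read beside the factors, against the 2.83% of all probe sets that passed in either direction. Neuron markers (6 measured of 7) averaged 10.24 ± 0.03 in PolyI:C offspring and 10.24 ± 0.04 in controls, astrocyte markers (7 of 7) 8.79 ± 0.06 in PolyI:C offspring and 8.82 ± 0.06 in controls, and microglia markers (6 of 7) 7.25 ± 0.07 in PolyI:C offspring and 7.27 ± 0.04 in controls (log2, SD, n = 6 each). None of these passed in limma, nor did the 4 endothelial markers measured. The 3 measured cortical projection neuron markers all had a higher mean (median 0.12) and did not pass, with Neurod6 at 0.12 ± 0.04 (limma adjusted p = 0.100), and averaged 8.47 ± 0.04 in PolyI:C offspring and 8.39 ± 0.05 in controls. Of the 5 Schwann cell markers, listed because Sox10 is also high in those cells, 3 were measured and none passed. Pmp2 averaged 4.11 in PolyI:C offspring and 4.09 in controls, near the 25th percentile of the arrays (3.92 to 3.96). Ncmap averaged 4.62 in PolyI:C offspring and 4.74 in controls (-0.11 ± 0.04, limma adjusted p = 0.157), and Egr2, which is also an activity-induced gene, 6.13 in PolyI:C offspring and 5.98 in controls. Of 8 striatal markers measured (of 10), Ppp1r1b fell (-0.27 ± 0.06, limma adjusted p = 0.0281) and 7 did not pass. All 8 had a lower mean (median -0.27). Of all probe sets 48.0% had a lower mean and 0.805% were lower past the test. The striatal list mean lay between 6.15 and 6.38 in PolyI:C offspring and between 6.19 and 6.96 in controls. The Ppp1r1b call was lost without control 2, control 6, PolyI:C 1, PolyI:C 3 or PolyI:C 4 (adjusted p up to 0.0674), and without controls 5 and 6 together (-0.18, adjusted p = 0.0538). Controls 5 and 6 had the highest list means, 6.96 and 6.78. Controls 2 and 3, at 6.49 and 6.41, also lay above every PolyI:C animal, so leaving out controls 5 and 6 does not even out the striatal markers. Without controls 5 and 6 the Myrf difference was -0.32 (limma adjusted p = 0.0410), the early class differed by -0.10 and the myelination class by -0.16. Olig1 was then at -0.05 and Nkx2-2 at -0.01, neither past the test (adjusted p = 0.679 and 0.914).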

How the data were processed

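Total RNA of the micro-dissected medial prefrontal cortex was measured on Affymetrix Mouse Gene 1.1 ST array strips, per the labels' protocols, which mention a 3' IVT kit and a whole-transcript kit as alternatives. The authors deposited 1 log2 value per probe set and array, as judged from the scale. Per the submitters' processing notes, RMA and Partek 6.6 were used, with no role or order stated, and normalization of that kind compresses differences of dim probe sets. Array medians lay between 5.15 and 5.21, and arrays correlated at 0.994 to 0.998 across probe sets. Of 35556 probe sets, 21218 carried 1 gene, 1881 several and 12457 none in the platform annotation. The symbols of 21185 single-gene probe sets were matched by gene identifier through RefSeq (GRCm38.p6). The genome build behind the values is not named in the sources used here. The number of arrays limits the precision.

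PolyI:C was compared with control in R 4.3.3 by limma 3.58.1 (lmFit, eBayes), two-sided, without covariates, and p-values were adjusted by Benjamini-Hochberg over the 23099 probe sets with a gene, a fit tested on simulated data. Tables and plots used Python 3.11.15, pandas 2.3.3, numpy 2.4.6 and matplotlib 3.10.9. The factors, classes and lists were chosen with earlier results of these data known, so class means and lists carry no test. Named were all factors and the called genes of each list or its 4 lowest p, of which the text gives the relevant ones. The 5 genes outside the set closest to each of Sox10, Olig2 and Myrf were named too. Same-numbered animals of the groups did not vary together (correlation of deviations -0.09 to 0.11), so the numbers were not treated as pairs. Alternatives were a replicate block, array weights, quantile normalization, median centring, a brightness filter at the 25th percentile, other variance priors, other summaries and classes, and leaving out animals. The removal of controls 5 and 6 together and all alternatives for the myelin genes were added after the data had been seen.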

Additional observations from a re-analysis of the deposited data

How the results depend on the processing

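Over 189 refits of the 9 factors, 180 kept their side of the threshold, 4 lost the call of Myrf and 5 brought Sox8 past it. No difference changed sign. That could not happen with the replicate block, the brightness filter, the trended, robust prior, no moderation or the mean over a gene's probe sets. These settings leave each difference as it was. The number of factors called, 1 as deposited, was 2 with array weights, quantile normalization, median centring or a trended, robust prior, 0 without moderation in limma (4 at an unadjusted p under 0.05), and 0 to 2 without any 1 animal. Calls over all probe sets, 653 (467 higher and 186 lower), were 239 higher and 285 lower after quantile normalization, 298 and 232 after median centring, 122 in all without moderation, and 230 to 818 without any 1 animal. The myelin genes called, 8, were 13 with the replicate block, 0 without moderation in limma (14 at an unadjusted p under 0.05), 4 without controls 5 and 6, and 2 to 12 without any 1 animal. With the replicate block 536 probe sets and 1 factor passed. The block is shown only because the numbers are shared, as no animal correlated best with its own number. With the median over genes, the myelination class differed by -0.05, as the median of its 3 genes is never Myrf. The early class differed by -0.17, as its median is Sox10 in every animal, and the gap between the classes by 0.12. The other class results moved by less than 1 SD between animals. The number of arrays, and for Nkx6-2 a shared probe set, limit what can be said.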
